A study of Homo sapiens with 50 samples.

Results

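Directly irradiated H1299shRAD9 cells were compared with their unirradiated controls on 10 of the 50 arrays of the series, 5 arrays per group, chosen by their labels and paired by replicate number. H1299 is a human non-small cell lung carcinoma line, and H1299shRAD9 is the same line carrying an integrated retroviral short hairpin RNA against RAD9 that was kept under puromycin selection. Stable clones with lowered RAD9 protein were used, and the labels do not give which clone an array came from, so clone and array cannot be told apart here. The hairpin is present in the control cells as well, so the comparison measures irradiation on a background of lowered RAD9 and not the loss of RAD9. Controls (CTL) were sham irradiated (0 Gy), whereas the DBP cells, labelled direct bystander positive, were grown on thin Mylar and received 1 Gy of helium ions (α particles, 125 keV per micron per the labels), and RNA was taken 4 h later. The particles pass the thin film but not the thicker Mylar in the same dish, so cells attached to the thicker film are not hit and serve as bystanders. A dish was placed in the DBP group because its bystander cells carried many micronuclei, and each array holds RNA of cells from such a dish. The other H1299shRAD9 groups used for comparison are DBN (hit cells whose bystanders had few micronuclei), BP (the bystanders of DBP dishes) and BN (the bystanders of DBN dishes), with 5 arrays each, and the parental H1299 cells have CTL and DBP arrays of their own, also 5 each.

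RAD9 forms with HUS1 and RAD1 the 9-1-1 clamp, which is loaded at damaged DNA and helps the ATR kinase to signal to CHK1. Cells hit by densely ionizing particles delay entry into mitosis, and many genes that are used only around mitosis are switched on late in the cell cycle through a short promoter element, the cell cycle genes homology region, often with CCAAT boxes nearby. A separate program, the integrated stress response, begins when kinases phosphorylate the translation factor eIF2 alpha, and is carried out by the transcription factor ATF4, which raises genes of amino acid supply and of glutathione turnover.

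All levels below are log2 signals relative to the array's median probe, so 1 unit is a 2-fold change and negative levels are dimmer than the median. The level of a feature (an array probe) cannot be set against that of another feature. Probes well above background made up 58.6% to 65.4% of an array in CTL and 55.1% to 63.0% in DBP, and the share was lower in DBP in 4 of 5 pairs (mean 57.9% against 60.8%, exact sign-flip permutation p = 0.1875, 2-sided). Features of a gene were ordered from 5′ to 3′ by genome position and strand, and their place in its transcripts was not determined. A 5′ to 3′ index, the median difference between the most 5′ and the most 3′ feature over 3427 genes, did not overlap between the groups. It ran from -1.54 to -1.49 in CTL and from -1.45 to -1.38 in DBP, a mean difference of 0.083 that was positive in 5 of 5 pairs (exact sign-flip permutation p = 0.0625, the smallest that 5 pairs allow). The 5 CTL arrays were lower than every array of DBN, BP and BN as well. The arrays lay on 5 slides, of which 2 held both groups, one with 1 DBP and 2 CTL arrays and the other with 1 of each.

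RAD9A, the gene targeted by the hairpin, did not separate the groups. Its feature (chr11:67165480-67165539, hg19) read 3.85, 3.71, 3.70, 3.35 and 3.64 in the CTL arrays and 3.70, 4.06, 3.52, 3.88 and 3.81 in the DBP arrays, in replicate order. The means were 3.65 ± 0.19 and 3.79 ± 0.20 (SD, n = 5), and DBP was higher in 3 pairs and lower in 2 (mean difference 0.14, SD of pairs 0.31, exact sign-flip permutation p = 0.375). Among markers of the line, VIM, KRT8, KRT18 and CDH2 had a feature well above background on all 10 arrays, and EPCAM, a marker of many carcinomas, on none. Features of the fibroblast collagens COL1A1, COL1A2 and COL3A1, of PECAM1 and KDR in endothelium, of HBB in red cells and of SFTPA1 in alveolar cells were well above background on none of the 10 arrays. PTPRC, CD14, CDH5 and SCGB1A1 features were also well above background on all 10 arrays. The summed linear signal of the leukocyte list was 3.21 to 5.50 times the array median in CTL and 2.21 to 5.19 in DBP, and its part in the results was not tested.

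In DBP against CTL, 217 of 12204 features tested (1.78%) were called by limma at p under 0.006 together with a Benjamini-Hochberg adjusted p under 0.1. The called genes with the largest falls were the helicase gene PIF1 and CCNF, TROAP, PSRC1, BORA and FAM83D, which act in mitotic entry and at the spindle. The genes that rose were led by CHAC1, a glutathione-degrading enzyme of the integrated stress response, and SMC1A, a core subunit of cohesin. Of the features called, 124 rose (1.02% of those tested) and 93 fell (0.762%), the smallest adjusted p being 0.0285. Changes were modest, with a median size of 0.64 on the log2 scale, and 6 of the rising and 8 of the falling features exceeded 2-fold. Among the rising features, 123 moved the same way in all 5 pairs, as did all 93 falling features. The CTL and DBP arrays did not overlap for 48 of the 124 rising and 46 of the 93 falling features, against 0.967% and 0.795% of all features tested. The features were called on these same arrays, so like pairs and separate groups follow in part from the choice. They are no separate evidence. The 124 rising features named 117 genes and the 93 falling features 77, and 15 of the falling features had no gene symbol. Without the replicate block the count was 14, and it depended on the arrays: 735 features were called without pair 1, 7 without pair 4, 15 without pair 5 and 0 without pair 2 or pair 3, where limma left a smallest adjusted p of 0.194 and 0.149. With the slide as a fixed block the count was 1 and as a random block 133, and it was 0 when probes were kept by the scanner software's positive and significant mark. Within the 2 slides that held both groups the DBP minus CTL difference was -1.19 and -0.91 for CCNF, 2.01 and 1.63 for CHAC1 and 1.01 and 0.88 for SMC1A. With the 5′ to 3′ index as a covariate, chosen after seeing the data, limma called 0 features, and the index and the group cannot be told apart on these arrays.

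PIF1, a DNA helicase that unwinds G-quadruplexes and acts at telomeres, fell most among called features with a gene symbol. Its level on the CTL arrays was 4.17, 4.05, 4.65, 4.31 and 4.78, and on the DBP arrays 2.74, 2.86, 2.73, 3.24 and 3.65. Every DBP array lay below every CTL array, and the difference was -1.35 (SE 0.14, limma adjusted p = 0.0399), a 2.54-fold lower signal (chr15:65107916-65107975, hg19). On the 2 slides that held both groups, the PIF1 difference was -1.24 and -1.13.

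CCNF encodes cyclin F, the F-box protein of an SCF ubiquitin ligase that acts in G2. It read 1.53, 1.61, 1.59, 1.41 and 1.64 in CTL and 0.38, 0.58, 0.25, 0.31 and 0.73 in DBP, again without overlap. The difference was -1.10 (SE 0.10, limma adjusted p = 0.0285; chr16:2507886-2507945, hg19). BORA, the activator through which Aurora A switches on PLK1, read 3.39, 3.25, 3.24, 3.37 and 3.63 in CTL and 2.33, 2.37, 2.12, 2.303 and 2.73 in DBP. The groups did not overlap, and the difference was -1.003 (SE 0.094, limma adjusted p = 0.0285; chr13:73329356-73329415, hg19). The kinase AURKA itself fell by 0.77 (CTL 6.90 ± 0.11, DBP 6.13 ± 0.18, SD, n = 5), and PLK1 fell by 0.59 from 4.14 ± 0.10 to 3.55 ± 0.29. A second PLK1 feature had a difference of -0.49 and was not called. In the list of PLK and Aurora kinases 4 of 12 tested features were called lower (0.762% of all features were) and 0 higher. They were those of BORA, AURKA, PLK1 and CDCA8, and the median of the list was -0.23 over 17 genes. CDCA8, which encodes borealin of the chromosomal passenger complex, fell by 0.81, with CTL arrays between 7.71 and 7.99 and DBP arrays between 6.84 and 7.12.

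The list of mitotic kinesins and spindle proteins moved together; in RNA of a whole dish, fewer dividing cells and less RNA per cell cannot be told apart. All 37 measured genes had a negative difference, the median being -0.32 against 0.031 over 13809 genes, and 10 of its 35 tested features were called lower and 0 higher (0.762% of all features were called lower). The median of the list was negative in each pair, from -0.54 in pair 1 to -0.19 in pair 2. TROAP, which binds microtubules at the spindle, read 7.30, 7.18, 7.77, 7.51 and 7.51 in CTL and 6.23, 6.23, 6.03, 6.51 and 6.76 in DBP (difference -1.10, SE 0.15, limma adjusted p = 0.0461). PSRC1, a microtubule plus-end protein, read 4.87, 4.72, 4.95, 4.85 and 4.67 in CTL and 3.40, 3.86, 3.68, 4.08 and 3.89 in DBP (difference -1.03, SE 0.13, limma adjusted p = 0.0461). Both genes had separate groups. FAM83D, which brings casein kinase 1 to the spindle, fell by 0.99 from 5.78 ± 0.16 to 4.79 ± 0.25 (SD, n = 5). CKAP2, CENPE, KIF20A, KIF14, KIFC1, KIF23 and KIF18A, motors and microtubule proteins of the spindle and midbody, fell by between 0.66 and 0.47, all but CKAP2 being named after their values were seen. KIF2C and KNSTRN, which were not called, had differences of -0.33 and -0.34, and KIF2C varied too little over the 50 arrays to be tested. Leaving out pair 2, 3 or 4 left 0 calls in this list and leaving out pair 5 left 2, while its median stayed between -0.28 and -0.36.

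The other division lists contributed fewer calls, beside 0.762% called lower and 1.02% called higher of all features tested. In the kinetochore and spindle checkpoint list, 3 of 22 tested features fell and 0 rose, and its median difference was -0.027 with 12 genes above 0 and 17 below. Those called were CENPA, the histone variant that marks the centromere (-0.87, CTL 4.87 to 5.45, DBP 4.05 to 4.43), its chaperone HJURP (-0.85, CTL 7.84 to 8.01, DBP 6.79 to 7.40) and SGO2, the shugoshin that protects centromeric cohesion (-0.56). NDC80 and CENPF had differences of -0.35 and -0.39 with no overlap between groups. NDC80 was not called (limma adjusted p = 0.182), and CENPF did not meet the variation criterion for testing. Among mitotic cyclins and regulators of CDK1, 2 of 12 tested features fell, CCNF and the inhibitory kinase WEE1 (-0.50, SE 0.099), and 0 rose. CCNB2 and CDC25B had differences of -0.24 and -0.075, and CDK1, chosen after its value was seen, 0.044; none of these varied enough to be tested. In the list of the anaphase-promoting complex, condensin and securin, 1 of 17 tested features fell, the condensin subunit NCAPG (-0.57), and 0 rose. The medians of the cyclin, kinetochore and anaphase lists were -0.047, -0.027 and -0.085. All 3 were above 0 with the 5′ to 3′ index as a covariate, the first and second also without pair 1, and the second also with the slide as a fixed block.

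**Figure D1:**
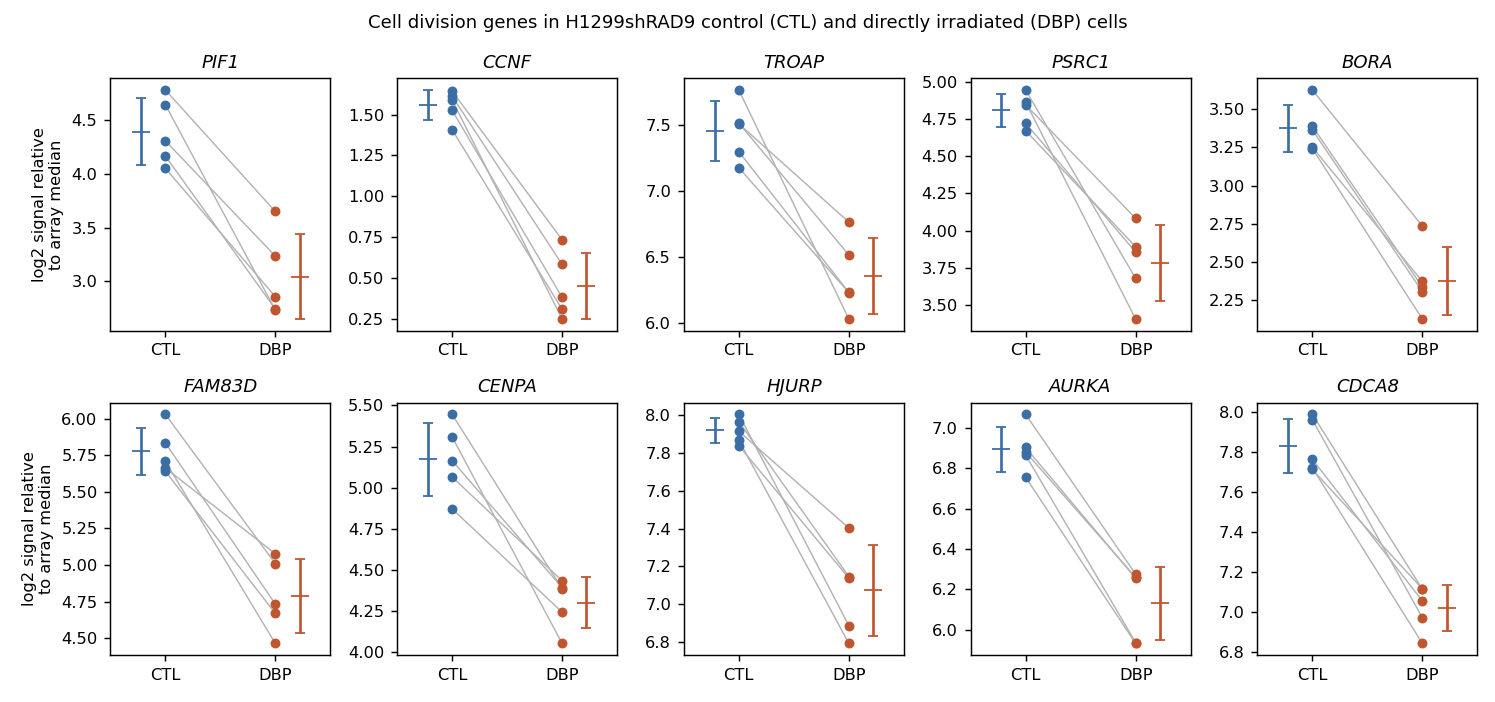
Levels of 10 cell division genes on the 5 CTL and 5 DBP arrays of H1299shRAD9, as log2 signal relative to the array median. Points are arrays, grey lines join arrays with the same replicate number, and the bars beside them give the mean and SD; in each panel all 5 DBP points lie below all 5 CTL points.

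The promoters of these genes were read from RefSeq (GRCh38.p14, 300 bases around the gene's start) because the late cell cycle element is a sequence feature that the comparison did not use. Of the 20 called falling genes in the division lists, 16 had a promoter in the table. The cell cycle genes homology region, searched as TTTGAA on both strands, was present in 11 of the 16 (68.8%), in 61 of 108 promoters of all division list genes (56.5%) and in 15.4% of 27305 promoters. The CCAAT box, searched as CCAAT on both strands, was in 13 of the 16 (81.2%), in 64.8% of division list promoters and in 35.7% of all promoters. The GC box GGGCGG was in 87.5% of the 16, 72.2% of division list promoters and 44.6% of all promoters. Promoters of all called rising genes held the CCAAT box in 32.3% and the GC box in 70.7%, so the GC box was common there too. Matches of different motifs overlapped in 1 of the 16 promoters. The promoters of the 4 division genes with the largest falls among those 16 are shown 5′ to 3′, with TTTGAA (or TTCAAA) and CCAAT (or ATTGG) in capitals. CCNF lies at chr16:2429197-2429496, plus strand, PSRC1 at chr1:109283096-109283395, minus strand, BORA at chr13:72727673-72727972, plus strand and CENPA at chr2:26785806-26786105, plus strand.
CCNF: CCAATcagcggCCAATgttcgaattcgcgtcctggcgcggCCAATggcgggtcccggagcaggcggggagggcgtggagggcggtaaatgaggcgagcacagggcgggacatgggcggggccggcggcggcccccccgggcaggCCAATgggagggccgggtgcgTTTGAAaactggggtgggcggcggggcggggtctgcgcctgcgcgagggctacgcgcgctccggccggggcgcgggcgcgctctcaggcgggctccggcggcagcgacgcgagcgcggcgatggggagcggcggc
PSRC1: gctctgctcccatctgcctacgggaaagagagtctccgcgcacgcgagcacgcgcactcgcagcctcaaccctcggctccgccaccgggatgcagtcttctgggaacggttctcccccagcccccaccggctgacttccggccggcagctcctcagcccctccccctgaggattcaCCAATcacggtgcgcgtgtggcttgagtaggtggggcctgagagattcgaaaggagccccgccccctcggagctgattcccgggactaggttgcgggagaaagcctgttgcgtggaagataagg
BORA: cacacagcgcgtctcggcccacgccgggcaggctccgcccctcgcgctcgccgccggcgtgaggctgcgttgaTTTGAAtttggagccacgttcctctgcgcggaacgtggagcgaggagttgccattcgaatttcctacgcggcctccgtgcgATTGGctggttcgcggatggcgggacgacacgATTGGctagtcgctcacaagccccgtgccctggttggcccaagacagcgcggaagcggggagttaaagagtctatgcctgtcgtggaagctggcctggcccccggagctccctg
CENPA: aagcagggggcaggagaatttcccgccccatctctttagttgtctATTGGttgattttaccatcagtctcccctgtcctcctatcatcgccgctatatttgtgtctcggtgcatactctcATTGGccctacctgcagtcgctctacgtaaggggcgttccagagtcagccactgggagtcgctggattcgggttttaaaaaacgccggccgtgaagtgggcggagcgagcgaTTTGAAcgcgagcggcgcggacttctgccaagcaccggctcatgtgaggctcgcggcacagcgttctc
In CCNF the homology region begins at -85 relative to the start, in BORA at -177 and in CENPA at -18. PSRC1 has a CCAAT box and no TTTGAA in this window. A match is a description of the letters only, and so is its absence.

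Other falling genes of the leading set belonged to no division list. The largest fall among called features, -1.58 (SE 0.18, limma adjusted p = 0.0461), was at a feature without a gene symbol, A_33_P3404221 (chr1:68944584-68944643, hg19). It read 0.42, 0.45, 0.67, 0.58 and 0.68 in CTL and -0.96, -1.73, -1.29, -0.86 and -0.28 in DBP, and was well above background on all 5 CTL but on 3 of 5 DBP arrays. A second feature without a symbol, A_33_P3370041 (chr12:9552557-9552616, hg19), fell by 1.09 and was well above background on 2 of 5 DBP arrays, with overlapping groups. LAG3, an inhibitory receptor best known on T cells, fell by 0.90, although CTL arrays ranged from 0.83 to 2.46 and DBP arrays from 0.19 to 1.58. APOLD1, an early-response gene described in endothelium, fell by 0.89 (CTL 3.73 to 4.18, DBP 2.72 to 3.40), and STARD13 by 0.87. APOLD1 has a second feature at 0.011 that was not called. CDKN2C, the CDK4 and CDK6 inhibitor p18, fell by 0.84, with all 5 pairs lower but the groups overlapping (CTL 5.71 to 6.39, DBP 4.68 to 5.71).

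The 3 inhibitors of differentiation ID1, ID2 and ID3 fell. These proteins bind E-box transcription factors without binding DNA, and their genes are targets of bone morphogenetic protein signalling. ID1 read 8.75, 9.36, 8.82, 8.99 and 9.10 in CTL and 8.07, 8.71, 8.35, 8.36 and 8.62 in DBP, so every DBP array lay below every CTL array (difference -0.58, SE 0.093, limma adjusted p = 0.0662). ID3 fell by 0.62 and the features of ID2 by 0.55 and 0.69, in 5 of 5 pairs each. In the list of TGF-beta and BMP targets these were the 4 features called lower of 33 tested (0.762% of all features were). With 0 called higher, the median of the list was -0.095 with 20 of 30 genes below 0. TGFB1 and TGFBR2 lay at -0.025 and -0.092.

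Among genes of the integrated stress response, CHAC1, ADM2, VEGFA, PCK2 and ASNS rose. CHAC1, which cleaves glutathione, read 2.78, 2.72, 3.51, 3.39 and 3.22 in CTL and 3.24, 3.72, 6.50, 5.46 and 4.85 in DBP. DBP was higher in 5 of 5 pairs, by as little as 0.46 in pair 1 and as much as 2.98 in pair 3, and the lowest DBP array overlapped the CTL range. The mean difference was 1.63 (SE 0.32, limma adjusted p = 0.0849), a 3.09-fold higher signal (chr15:41248631-41248690, hg19). A second CHAC1 feature read 1.48 higher and was not called (adjusted p = 0.188). ADM2, a peptide hormone of the calcitonin family, rose by 0.89 (SE 0.17), VEGFA, the angiogenic growth factor, by 0.69 (SE 0.14), PCK2, mitochondrial phosphoenolpyruvate carboxykinase, by 0.60 (SE 0.12), and ASNS, asparagine synthetase, by 0.58 (SE 0.12), the last named after its value was seen. For these 4 genes the groups overlapped while all 5 pairs were higher, and replicates 1 and 2 held the lowest levels in CTL and in DBP alike. ASNS read 7.92, 7.995, 8.74, 8.84 and 8.45 in CTL and 8.11, 8.52, 9.64, 9.51 and 9.08 in DBP. ADM2 has a second feature, the more 5′ of its features, at -0.13.

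All 42 measured genes of the integrated stress response list had a positive difference, with a median of 0.33 against 0.031 over all genes. Of 47 tested features 5 were called higher (1.02% of all features were) and 0 lower. The pairs did not contribute equally: the median of the list was -0.053 in pair 1 and 0.33, 0.73, 0.43 and 0.32 in pairs 2 to 5. Leaving out pair 1 gave 17 called features in this list, and leaving out any of the other pairs or the replicate block gave 0. The factor at the head of the pathway, ATF4, had a difference of 0.042 (SE 0.099, limma adjusted p = 0.879), and NUPR1, a stress-induced chromatin protein, was 0.61 higher in 4 of 5 pairs without being called. The element that ATF4 binds with its partners, searched as TGATGNAA on both strands, was in 9 of 36 promoters of the list (25%) against 3.67% of all promoters, with 0 promoters of the list holding overlapping motifs. CHAC1 (chr15:40953221-40953520, plus strand, GRCh38.p14) is printed with that element (on the minus strand, so that it reads TTGCATCA) and its CCAAT boxes in capitals.
CHAC1: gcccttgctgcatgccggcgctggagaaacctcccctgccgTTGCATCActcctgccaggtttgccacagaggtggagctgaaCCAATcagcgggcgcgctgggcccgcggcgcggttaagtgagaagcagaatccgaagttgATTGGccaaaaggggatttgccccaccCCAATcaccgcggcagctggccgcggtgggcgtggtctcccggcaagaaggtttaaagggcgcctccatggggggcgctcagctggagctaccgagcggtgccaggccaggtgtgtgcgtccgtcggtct
The element lies at -209 relative to the start.

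**Figure D2:**
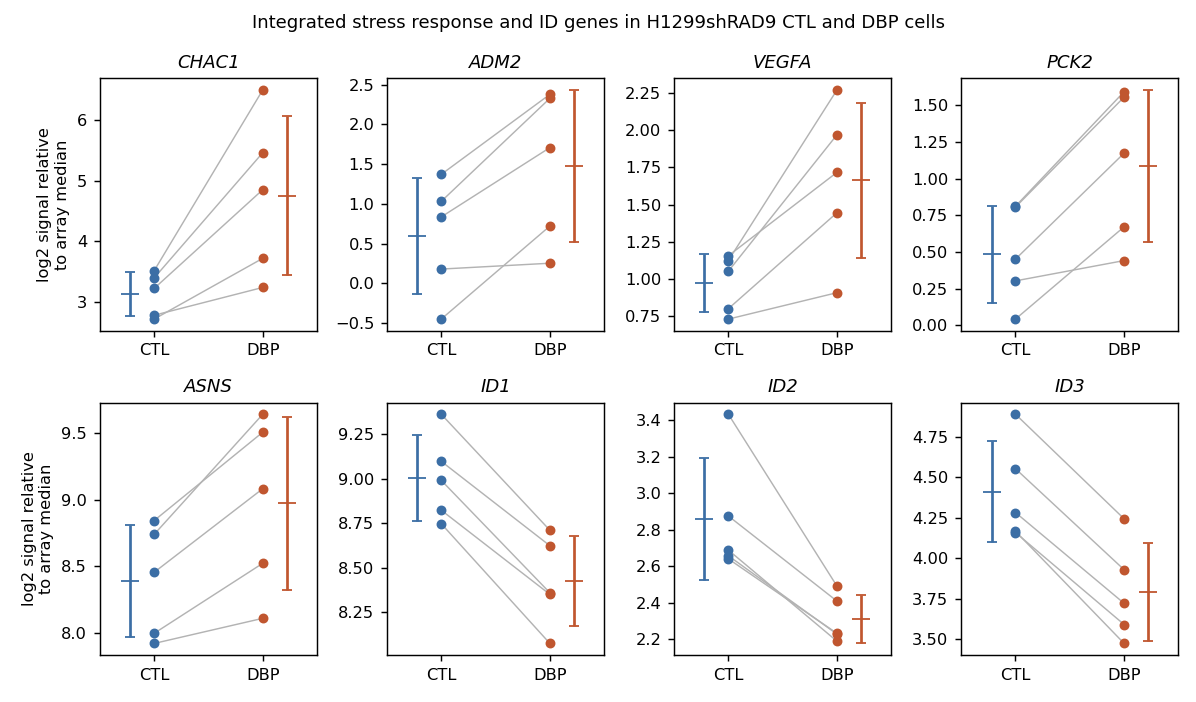
Levels of 5 integrated stress response genes and of ID1, ID2 and ID3 on the CTL and DBP arrays of H1299shRAD9, as log2 signal relative to the array median, with pairs joined and mean ± SD at the side. The stress genes rise in each pair by unequal amounts, least in pair 1 for CHAC1 (0.46), while the ID genes fall in every pair.

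SMC1A and other genes rose at features that lie toward the 5′ end of the gene by genome position. SMC1A has 3 features. The middle one (chrX:53426547-53426606, hg19) read 4.12, 3.91, 4.98, 4.18 and 4.82 in CTL and 5.33, 5.53, 5.82, 5.59 and 5.70 in DBP, without overlap (difference 1.19, SE 0.14, limma adjusted p = 0.0461). In the cohesin list this and the most 5′ feature were the 2 features called of 11, both higher (1.02% of all features were). The median over the 15 genes of the list was 0.083. The most 5′ feature rose by 1.03, and the most 3′ feature lay at -0.11. The same arrangement held for PALM3 (1.05 at the 5′ feature, -0.0034 at the 3′ feature), SIMC1 (1.09 and 0.12), DDX10, an RNA helicase (0.92 and 0.12), CDCP1, a surface glycoprotein (0.88 and 0.00066), PPP1R9A, which encodes the actin-binding neurabin (0.86 and 0.088), and MBTD1, a chromatin reader (0.85 and 0.036). The 5′ feature of SIMC1 was well above background on 1 of 5 CTL and 4 of 5 DBP arrays. CNTRL, which encodes centriolin, rose by 0.91 at its middle feature and had 0.73 and 0.225 at its outer features, neither called. SYT1, a synaptic vesicle calcium sensor, rose by 0.85 at its 3′ feature (0.20 at the 5′ feature), and HOXA6, a homeobox gene with a single feature, by 0.85.

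The called features were spread unevenly over their genes. Of the 90 rising features in genes with several placed features, 67 (74.4%) were the most 5′ and 8 (8.89%) the most 3′, while of the 24 falling features 5 (20.8%) were the most 5′ and 18 (75%) the most 3′. Among all 4494 tested features that could be placed, 48.4% were the most 5′ and 41.4% the most 3′. Where the rising feature was the most 5′, its median difference was 0.65 and the most 3′ feature of the same genes had a median of 0.10. The 5′ to 3′ index of the arrays, described above, moved in the same direction; with it as a covariate limma called 0 features and all 217 differences kept their sign. Among falling genes with several features PLK1, CKAP2 and ID2 had like differences at both of their features, whereas TROAP had -1.10 at its 3′ and -0.14 at its 5′ feature.

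**Figure D3:**
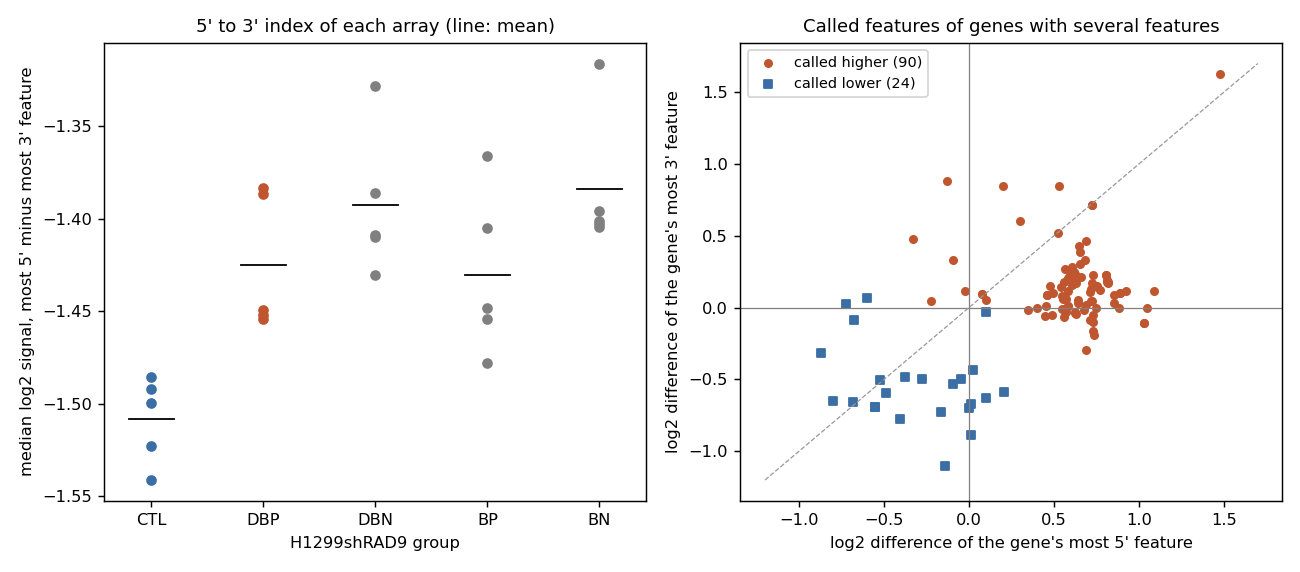
Left, the 5′ to 3′ index of each H1299shRAD9 array by group (higher means relatively more signal at 5′ features), with the group mean as a line; CTL lies below every other group. Right, for called features in genes with several features, the log2 difference (DBP minus CTL) at the gene's most 3′ feature against that at its most 5′ feature, with equality dashed; most rising genes lie near 0 at the 3′ feature and CHAC1 lies alone at the top right (1.48 and 1.63).

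Further gene lists gave few calls, beside 1.02% called higher and 0.762% called lower of all features tested. Replication-dependent histones had 2 features called higher of 26, the linker histones H1-5 (4.76 ± 0.16 to 5.20 ± 0.16) and H1-4 (5.63 ± 0.29 to 6.06 ± 0.25), both by 0.43, while H4C2 and H4C3 had 0.27 and 0.17. RELB, a subunit of NF-kappa B, rose by 0.55 and was the 1 called feature of 15 in the list of cytokines and bystander mediators. KLF4 rose by 0.51 among 32 features of immediate early genes. Among interferon-stimulated genes PARP14 rose by 0.47 and IFIT1 fell by 0.49, of 30 features. SRSF11 rose by 0.55 at its most 5′ feature (0.065 and 0.22 at its other features) and was the 1 of 77 features of splicing factors. VEGFA was the 1 of 37 HIF1 target features. CD14, in the leukocyte list, fell by 0.58. PIF1 was the 1 of 22 features of double-strand break repair (median 0.058) and CDKN2C the 1 of 18 of CDK inhibitors and G1 control (median 0.018).

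Lists with 0 calls in either direction by limma were S phase and DNA replication (28 features, median 0.035), the 9-1-1 clamp and ATR checkpoint (5, median 0.11), NRF2 and oxidative stress (26, median 0.21), the BCL2 family (22, median 0.040), chaperones (35, median 0.080), cytosolic ribosomal proteins (19, median 0.0063), proteasome subunits (5, median 0.094) and the respiratory chain (19, median 0.051). Of all features tested 1.78% were called, so 0 calls in lists this short say little about them. CDKN1A, which encodes the CDK inhibitor p21, was 1.34 higher on average and was not called (SE 0.36, limma adjusted p = 0.144). It read -1.46, -1.85, -1.97, -1.41 and -1.49 in CTL and -0.85, -0.91, -0.29, 1.73 and -1.14 in DBP, so the groups did not overlap, the pair differences ranged from 0.35 to 3.13, and the feature was well above background on 3 of 5 CTL arrays. BAX of the BCL2 family, not tested, had -0.073. HMOX1, the haem oxygenase of the NRF2 list, chosen after its value was seen, was 1.40 higher (SE 0.34) in 5 of 5 pairs and was not called. Some genes were looked up because the study's text names them, which is no independent evidence and no full list of those it names. Of these, MMP1, TFAM, FBXW12 and CDKN1C had differences of 0.70, 0.41, 0.82 and 0.23 and were not called, and SP1, not tested, had -0.21. VNN2 had -0.31 and was not called, its feature was well above background on 4 of 5 CTL and 0 of 5 DBP arrays, and the sign turned with the authors' processed values (1.85). FBXW12 was higher in 2 pairs, by 2.35 and 3.16, lower in 3, and well above background on 2 of 5 DBP arrays.

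**Figure D4:**
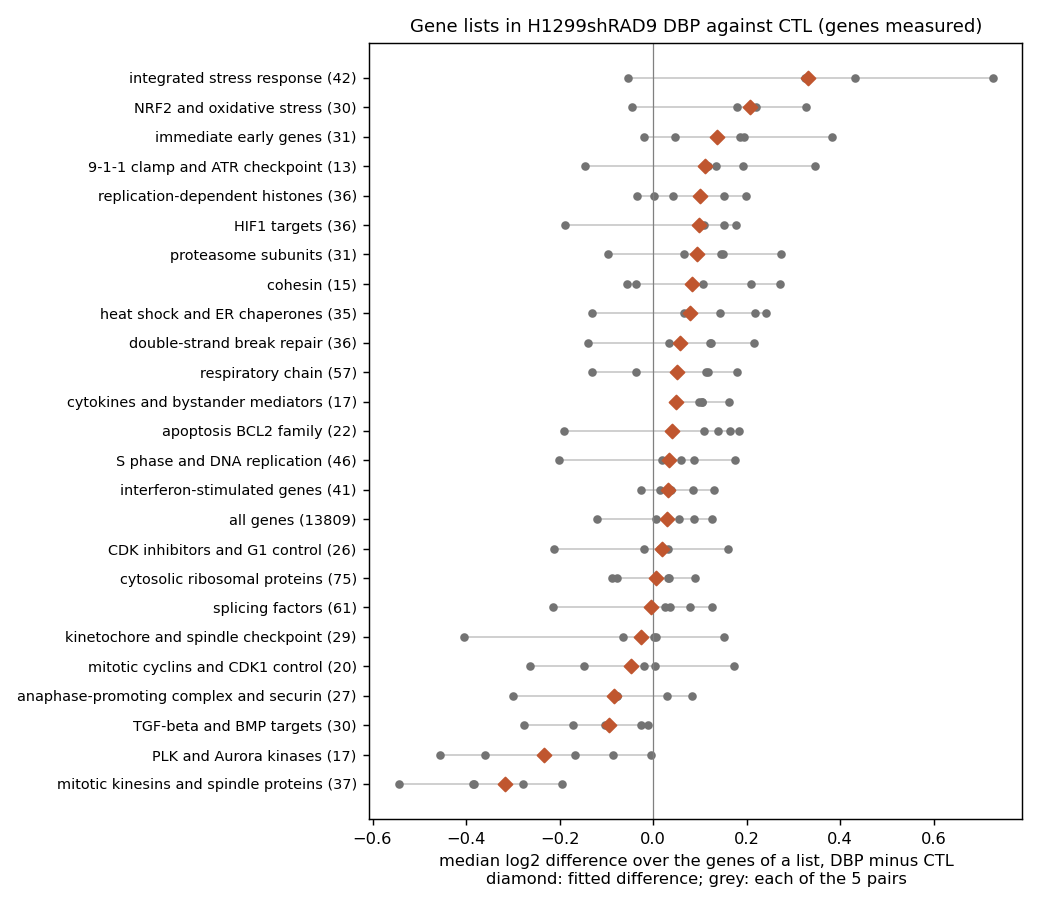
Median log2 difference (DBP minus CTL in H1299shRAD9) over the measured genes of each list shown, whose number stands in brackets. Diamonds are the fitted differences and grey points the 5 pairs; the integrated stress response lies highest at 0.33 and the mitotic kinesins and spindle proteins lowest at -0.32, with all genes at 0.031.

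DBP cells were then compared with the other directly irradiated cells, to ask whether hit cells of dishes with a bystander response differed from those of dishes without. In DBP against DBN, limma called 0 of 12206 features (0%), 60 had an unadjusted p under 0.05, and the random-variance test also called 0. The differences of the division genes had intervals around 0: that of CCNF was 0.12 (95% interval -0.37 to 0.60), that of PIF1 -0.0035 (-0.45 to 0.44), that of BORA 0.13 (-0.24 to 0.50) and that of CENPA 0.13 (-0.30 to 0.55). Over the 20 called falling genes of the division lists the differences ran from -0.046 to 0.15, with a median half-width of the interval of 0.37. For CHAC1 the interval was wide, 0.089 (-1.29 to 1.47). The genes were chosen on the DBP arrays, and an interval that includes 0 does not show that the groups are alike.

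DBP cells were next compared with their own bystanders. In DBP against BP, which share dishes but no control arrays, limma called 12 of 12206 features (0.0983%), all lower in DBP and all in 5 of 5 pairs. They were PIF1 (-1.33, SE 0.12, limma adjusted p = 0.0245), BORA (-1.08, SE 0.10), TROAP (-1.07, SE 0.10), LAG3 (-1.03), PSRC1 (-1.01), FAM83D (-1.01), CCNF (-1), GAS2L3, a cytoskeletal linker at the midbody (-0.91), HJURP (-0.795), AURKA (-0.79), AURKAP1, a pseudogene of AURKA that can share its signal (-0.72), and A_33_P3404221 (-1.50). GAS2L3 and AURKAP1 are named because they were called here and not by the rule for named genes. Of the 12, 7 were in the division lists. For CENPA the difference was -0.88 and for CDCA8 -0.76, neither called. No rising feature was called: the DBP minus BP difference was 0.22 for SMC1A (95% interval -0.505 to 0.94), -0.14 for CDCP1 (-0.59 to 0.31), -0.066 for VEGFA (-0.41 to 0.275) and 0.45 for CHAC1 (0.12 to 0.77). With the slide as a fixed block the count was 3. The count of 12 rested on all 5 pairs, being 1 without pair 5 and 0 without any other pair.

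The features called in DBP are given here side by side over the other groups, since all H1299shRAD9 comparisons share the 5 CTL arrays. For the 20 falling division genes the median difference from CTL was -0.64 in DBP, -0.74 in DBN, -0.0058 in BP and 0.0060 in BN. In parental H1299 cells the median of the same 20 was -0.88, with a range of -1.97 to -0.56. The H1299 arrays were not used for the calls, but they were among the arrays on which features were filtered for testing. The division lists were also chosen with earlier results of these data known. The other 73 falling features had medians of -0.63, -0.57, -0.19 and -0.23 in DBP, DBN, BP and BN, and -0.47 in H1299 DBP. For the 124 rising features the medians were 0.64 in DBP, 0.80 in DBN, 0.62 in BP and 0.77 in BN, and -0.065 in H1299 DBP. The 5 called stress response genes had 0.69, 0.75, 0.63 and 0.69 in the same order and 0.29 in H1299 DBP.

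**Figure D5:**
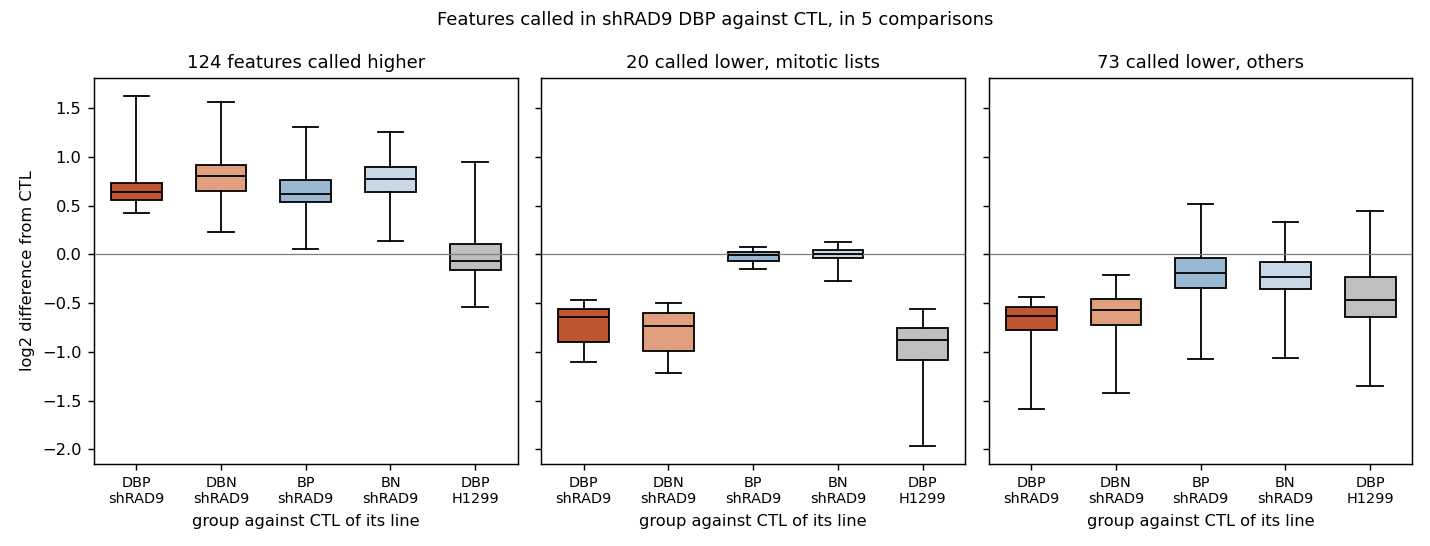
Log2 differences from the CTL of the same line for the features called in H1299shRAD9 DBP, in DBP, DBN, BP and BN of H1299shRAD9 and in DBP of parental H1299. Boxes give quartiles and median, whiskers the lowest and highest feature; falling division genes (middle) centre near 0 in both bystander groups and at -0.88 in H1299 DBP, and rising features (left) centre at -0.065 in H1299 DBP.

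A test of the difference in response between the lines found 0 of 12206 features (0%) by limma, with 1054 at an unadjusted p under 0.05 and a smallest adjusted p of 0.57, and the random-variance test also called 0. The single-gene differences (H1299shRAD9 response minus H1299 response) were 1.36 for SMC1A (95% interval 0.60 to 2.11, limma adjusted p = 0.57), 1.33 for CHAC1 (0.35 to 2.32) and 0.0078 for PIF1 (-0.58 to 0.60). Over the 124 rising features the median difference was 0.69 with a median half-width of 0.57, and over the 20 falling division genes 0.18 with a half-width of 0.40. These features were called on the H1299shRAD9 DBP and CTL arrays, which are part of this test. Differences in the direction of the call, also those of SMC1A and CHAC1, therefore follow in part from the choice and are no separate evidence. SMC1A itself had -0.17 (SE 0.28) in H1299 DBP, CDCP1 -0.062 (SE 0.24) and DDX10 0.057 (SE 0.17), and PIF1 had -1.36 (SE 0.21), CCNF -1.97 (SE 0.42) and BORA -1.2 (SE 0.13). The H1299 controls were uneven for the integrated stress response. Its 42 genes had a mean level of 6.30, 6.43, 4.68, 4.67 and 4.73 in H1299 CTL, in replicate order. In H1299 DBP the level was 6.22, 6.89, 4.78, 4.99 and 4.88, and in H1299shRAD9 CTL 4.47, 4.51, 4.88, 4.98 and 4.75. The part of these starting levels in the line difference was not tested. A response present in one line and not called to differ is not shown to be particular to it.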

How the data were processed

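RNA of H1299 and H1299shRAD9 cells was labelled with Cy3 and hybridized to Agilent whole human genome arrays, 1 sample per array. The deposited scanner files hold, per the file headers, each spot's processed signal intensity after background subtraction by Agilent Feature Extraction at default settings, mean signal and background intensity, and other flags (well above background, positive and significant, outlier, saturated). The deposited value table holds the authors' log2 values, made in BRB-ArrayTools by median normalization, averaging of replicate spots and filtering; its 9476 non-control features correlated with the scanner values at 0.999 or more, and its columns had medians of 8.86 to 9.30, so that its centring differs from that used here. Depth has no meaning for arrays; the number of arrays, 5 per group, limits the precision.

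Log2 of the processed intensity was centred on each array's median over non-control probes, and spots of a probe were averaged without outlier spots. Of 34127 probes, any with an outlier mark or without the mark for signal well above background on at least 25% of the 50 arrays was removed, leaving 20100, and those at least 1.3-fold from their median in at least 20% of arrays were kept, of which 12204 entered the DBP and CTL fit. Probes were named through RefSeq accessions (25771), current symbols (2207) or older symbols (499), and 5650 stayed unnamed. Positions are hg19, as in the array annotation. limma (version 3.58.1, R 4.3.3) was fitted to the arrays compared, with the replicate number as a block for DBP against CTL, DBP against BP and the interaction, and calls needed p under 0.006 and a Benjamini-Hochberg adjusted p under 0.1 over all features tested. The methods name a random-variance paired test, which was run as an alternative. The labels share replicate numbers between groups. Deviations of same-numbered DBP and CTL arrays from their group means correlated at 0.37 to 0.75 in the 5 pairs (mean 0.54), so the numbers were taken to pair the arrays. The mean for other numbers, -0.13, follows largely from centring each group on its mean and is no separate evidence. The DBP and CTL arrays of replicate 4 shared a slide, as did those of replicate 5, which the correlations cannot tell from pairing. Arrays are labelled as biological replicates, and 0 arrays held identical values. Fits were tested on simulated data with known changes. The simulated noise was independent between arrays and held no replicate effect, so that test cannot speak for the replicate block.

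For list medians each gene was represented by its brightest feature. Named genes were the 12 largest rises and 12 largest falls alike in all 5 pairs, the called members of each list (at most 4) and at most 2 bright members not called, and 16 genes taken from the study's text (not all that it names), RAD9A among them. The groups, gene lists and motifs were chosen with earlier results of these data known. The deposited files were also analysed with other scalings, background corrections, filters, tests, slide blocks, and without each pair; the array median over spots, kept outlier spots and the 5′ to 3′ index as a covariate were chosen after seeing the data. Oligonucleotide sequences of the array probes were not used here, and some genes and 1 gene list are not reported here.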

Additional observations from a re-analysis of the deposited data

Results flagged for a closer look

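Over 102 groups of 5 arrays (levels of named features and array measures), 5 held 1 array far from the other 4 by Dixon's criterion for 5 values (0.71), and chance gives about 1 in 20 such groups. SRSF11 read 5.58 in CTL replicate 5 against 5.05 to 5.16 in the other CTL arrays. PLK1 read 3.04 in DBP replicate 3 against 3.57 to 3.75, so that its fall was largest in that pair. CKAP2 read 5.15 in DBP replicate 2 against 4.84 to 4.92. STARD13 read 0.56 in DBP replicate 5, the highest DBP value, against -0.43 to -0.24. The share of probes well above background was 65.4% in CTL replicate 5 against 58.6% to 60.4% in the other CTL arrays.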

How the results depend on the processing

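In DBP against CTL the count of 217 kept within 1.5 times under 75th percentile scaling (322), quantile normalization (309), normexp correction (239) and no 1.3-fold criterion (261). It did so too with features above background on at least 4 of 5 arrays of either group (232) and a single fit of all groups (294). The random-variance test (191) and the authors' processed values (237) kept it there as well. The count also kept within that range with the array median over spots (266) and kept outlier spots (155), both chosen after seeing the data. It was 0 when probes were kept by the positive and significant mark (smallest limma adjusted p 0.158), 1 with the slide as a fixed block, 133 with the slide as a random block, and 0 with the 5′ to 3′ index as a covariate. Leaving out 1 pair gave 0 to 735 calls. In DBP against DBN, 0 calls became 1 with the authors' values and 439 with the slide as a fixed block, where 1 slide held both groups with 1 array each. In DBP against BP, 12 became 25 (quantile), 22 (normexp), 0 (positive and significant mark), 41 (all groups), 29 (authors' values), 3 and 30 (slide as fixed and random block) and 40 (index), and 0 to 1 without 1 pair. The line difference gave 0 calls in each alternative; normexp moved its median over all features to 0.295. VNN2 had -0.31, and 1.85 with the authors' values. The RAD9A difference stayed between 0.045 and 0.225 in the settings where the sign-flip test was rerun. Over all 19 alternatives fitted it ran from 0.045 to 0.564. The causes of these changes were not tested.

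The replicate numbers were taken to pair the arrays here. Without the replicate block 14 features were called in DBP against CTL, 2 higher and 12 lower, in place of 217, and 13 in place of 12 in DBP against BP; with the block DBP against DBN stayed at 0. With 5 arrays per group, a median SE of 0.12, the smallest change called was 0.43 on the log2 scale.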
